A study of Rattus norvegicus with 15 samples.

Results

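Light against darkness at 3 ZT was compared in the adult rat retina with 3 arrays of retinas exposed to light and 3 arrays of retinas kept in darkness, out of 15 arrays in 5 conditions. The light retinas came from animals that received 1000 lux for 3 h from the start of the subjective day (0 ZT), and the dark retinas from animals left in darkness for the same 3 h, so both conditions were collected at the same clock time. All animals were Long Evans rats entrained to a light/dark cycle and then kept in the dark overnight. The study describes male adult rats 3 months old. How many animals gave the RNA of an array, whether it was pooled and where the 3 replicas of a condition came from is not stated for the arrays, so p-values reflect the spread among these arrays alone, which may be technical. Each light array carries the same replica number (1, 2 or 3) as one dark array. The features compared were all 31042 probe sets of the array other than 57 controls, of which 20826 carry a single gene symbol, 436 several and 9780 none, and they cover 14217 genes. The other 9 arrays (3 in darkness at 0 ZT, 3 in darkness and 3 in light at 6 ZT) entered only the estimate of the spread and the comparison with 6 ZT. For the light arrays at 6 ZT the labels disagree, since the titles give 6 h of light and the treatment field 3 h. A retina is a mixture of cell types, and fewer cells of a type cannot be told apart from less RNA per cell.

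Light closes the cation channels of rods and cones, which hyperpolarize and release less glutamate. ON bipolar cells sense this fall through the metabotropic receptor mGluR6, encoded by *Grm6*. Light also drives dopamine release from amacrine cells, and dopamine acts on D4 receptors of the photoreceptors, encoded by *Drd4*, which lower cyclic AMP, while darkness at night favours melatonin synthesis. Cyclic AMP acts on genes through the CRE, a DNA element bound by the factors CREB and CREM. The arrays carried the tissue named in the labels: *Sag*, the arrestin of rods, lay between 15.36 and 15.55 on the log2 scale in the dark arrays at 3 ZT, among the brightest probe sets.

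The effect of 3 h of light on the whole set of transcripts was small beside the differences between replicas. A single probe set passed the test (limma, adjusted p under 0.05 over 31042 probe sets): 1 fell, 0.00322% of those tested, and 0 rose, 0%. At an unadjusted p under 0.05, 608 probe sets were higher (1.96%) and 818 lower (2.64%). In a fit of only the brightest probe set of each of 14217 genes, 189 were higher and 511 lower at that p. The lists below count genes by their brightest probe set, while the shares beside them are over all probe sets. The 2 are therefore not fully alike. The fitted difference was above 0 in 15568 probe sets and below 0 in 15436, with a median of 0.00 and 5th and 95th percentiles of -0.32 and 0.29 on the log2 scale, against a median standard error (SE) of 0.116. By the study's own rule for a change, turned here to the dark array of the same replica, 5 probe sets had a light/dark ratio above 1.6 in all 3 replicas (0.0161%) and 10 a ratio below 0.7 in all 3 (0.0322%).

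**Figure D1:**
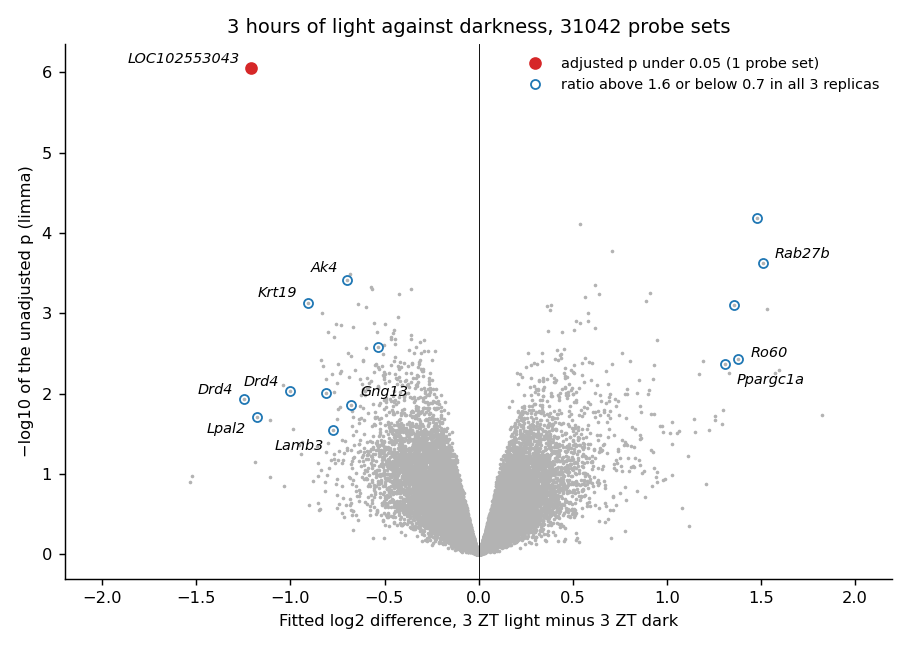
Fitted log2 difference between light and darkness at 3 ZT (horizontal axis) against its unadjusted limma p on a -log10 scale (vertical axis), 1 point per probe set. *LOC102553043* stands apart at -1.21 as the 1 probe set that passed the test, and open circles mark the others past the ratio limits in all 3 replicas.

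The 3 replicas did not share one pattern across genes. Over all probe sets, the light minus dark differences of replica 1 correlated with those of replica 2 at r = 0.132 and with those of replica 3 at r = -0.111, and those of replicas 2 and 3 at r = -0.101 (the points share their arrays, and genes are not independent). Of 31042 probe sets, the difference had the same sign in all 3 replicas in 2393 on the higher side and 2926 on the lower. The number to be expected without any effect of light was not worked out, so these counts alone show no response. The light array of replica 2 stood apart from the others at 3 ZT. Its 3′ to 5′ signal difference, a sign of RNA degradation or short labelled fragments, was 2.40 for *Actb* against 0.79 to 1.37 in the other 5 arrays and 0.362 for *Gapdh* against 0.005 to 0.082. The SD of the light minus dark difference over probe sets was 0.446 in replica 2, against 0.262 in replica 1 and 0.233 in replica 3, and 3420 probe sets had a ratio below 0.7 in replica 2 against 1032 and 260. Most lists below are therefore also given without replica 2 of both conditions, as are some of the single genes in which that value differs. Of 599 genes on all lists, 143 change the sign of their difference without that replica. Between 6.03% and 10.7% of probe sets had exactly the same value in the light and dark arrays of one replica, and the median level of an array was 8.28 to 8.31 in replica 1, 8.58 to 8.60 in replica 2 and 8.74 to 8.79 in replica 3. Levels are therefore best read within a replica, and ± values below, which span replicas, hold this offset too. Where groups are said below not to overlap, the share of all probe sets without overlap was not counted. Many of these genes were chosen for a low p with one sign in all replicas, which favours groups without overlap. The trait is therefore a description only.

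The transcript that fell in the light was *LOC102553043*, a long non-coding RNA gene of chromosome 1. Its log2 level was 9.25, 9.16 and 9.16 in the dark arrays of replicas 1, 2 and 3 (9.19 ± 0.05, SD, n = 3) and 8.18, 7.98 and 7.78 in the light arrays (7.98 ± 0.20). Every light array lay below every dark array, and the dark arrays at 0 ZT were at the level of those at 3 ZT (9.25 ± 0.17). The light/dark ratio was 0.433 ± 0.0468, a log2 difference of -1.21 (SE 0.119, 95% interval -1.48 to -0.95, adjusted p = 0.0277). Without replica 2 the difference was -1.23, with an adjusted p of 0.358. The call was also lost without any single one of the 6 arrays at 3 ZT (adjusted p 0.0694 to 0.371) and when those 6 arrays were fitted alone (0.929), while the difference itself stayed between -1.30 and -1.14 under every alternative run.

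In the RefSeq order of genes on chromosome 1 (GRCr8), *LOC102553043* lies between *Rassf7* and the microRNA genes *Mir3574* and *Mir210*, and *Drd4* is the seventh gene further on. None of the nearest genes with a probe set passed the test. *Rassf7* differed by -0.10, *Phrf1* by 0.14, *Irf7* by 0.01 and *Cdhr5* by -0.06, with unadjusted p of 0.33 to 0.954. *Sct*, encoding the hormone secretin, differed by -0.24 (unadjusted p = 0.0871) and *Deaf1*, just past *Drd4*, by -0.36 (unadjusted p = 0.0363; -0.17 without replica 2). The 250 bases before the annotated start of *LOC102553043* and of *Drd4* are shown because the first passed the test and the second, close to it on the chromosome, had lower values by several probe sets. Neither holds any of 4 motifs searched on both strands, the CRE (TGACGTCA), the E-box of clock factors (CACGTG), the nuclear receptor half-site (AGGTCA) and the Crx site (TAATCC), which occur in 1.59%, 5.59%, 14.1% and 6.34% of 33469 rat promoters of this length. The sequences are from RefSeq, 5′ to 3′ on the strand of the gene.
LOC102553043, chr1:205763341-205763590 (-): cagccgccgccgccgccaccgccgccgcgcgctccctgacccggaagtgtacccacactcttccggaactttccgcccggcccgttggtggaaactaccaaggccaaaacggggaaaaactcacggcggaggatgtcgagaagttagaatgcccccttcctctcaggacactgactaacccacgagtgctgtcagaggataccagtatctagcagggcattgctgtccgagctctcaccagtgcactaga
Drd4, chr1:205825687-205825936 (+): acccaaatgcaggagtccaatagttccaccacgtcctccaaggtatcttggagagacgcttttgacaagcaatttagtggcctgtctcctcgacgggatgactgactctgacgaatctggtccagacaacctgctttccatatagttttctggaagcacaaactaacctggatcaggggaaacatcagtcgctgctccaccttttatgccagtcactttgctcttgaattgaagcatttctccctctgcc

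*Drd4*, the D4 dopamine receptor of photoreceptors, was measured by 3 probe sets, and all 3 read lower in the light array of every replica. For the dimmest of them the dark arrays read 12.54, 12.47 and 12.21 and the light arrays 11.82, 10.32 and 11.34. These groups did not overlap, and the difference was -1.25 (SE 0.408; -0.79 without replica 2). For the next the dark values were 13.08, 12.71 and 12.27 and the light values 12.52, 10.96 and 11.57, a difference of -1.0 (SE 0.316; -0.63 without replica 2) with groups that overlapped. The brightest read 14.55, 14.48 and 14.18 in darkness and 14.27, 14.16 and 13.46 in light, a smaller difference of -0.44 (SE 0.118; -0.50 without replica 2). None of the 3 passed the test (adjusted p = 0.895). The lowest adjusted p after *LOC102553043* over all probe sets was 0.808, so that no other gene described here passed.

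**Figure D2:**
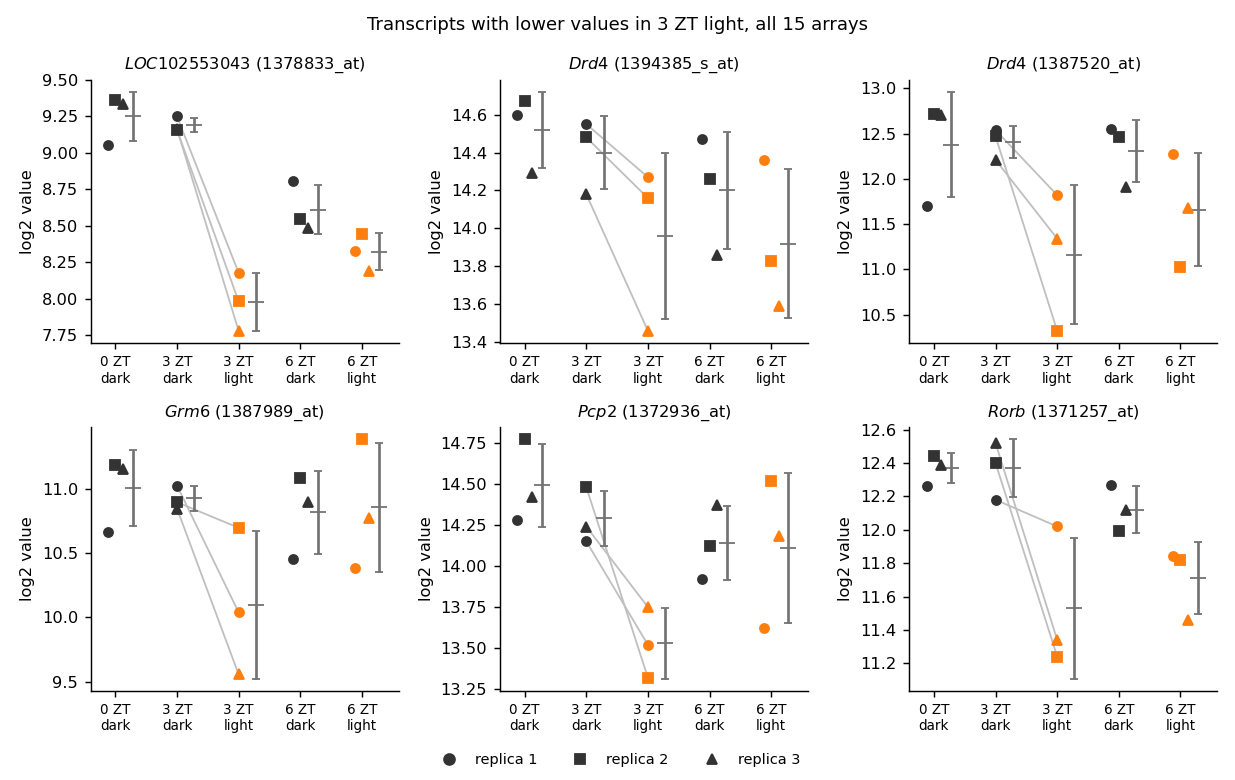
Log2 level (vertical axis) of single arrays in all 5 conditions for transcripts with lower values in 3 ZT light, 1 panel per probe set. Points are single arrays, bars the mean ± SD of a condition (n = 3), and lines join the dark and light arrays of a replica; for *LOC102553043* they run from 9.16 to 9.25 down to 7.78 to 8.18.

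Genes of dopamine, adrenergic and melatonin signalling, *Drd4* among them, were described as a list. Of 22 genes on this list 16 were measured, 8 with higher and 8 with lower values (median -5e-05). At an unadjusted limma p under 0.05, 5 were lower (31.2%, against 2.64% of all probe sets) and 0 higher. The 5 were *Drd4*, *Drd2*, *Asmt*, *Adra1b* and *Aanat*, the rate-limiting enzyme of melatonin synthesis (-0.27, SE 0.122). With replica 2 left out, 5 members were higher and 11 lower. Of these, 4 were lower at an unadjusted limma p under 0.05, where 1.7% of all probe sets were lower. *Drd2*, the D2 receptor and dopamine autoreceptor, read 10.89, 10.53 and 11.06 in darkness and 9.82, 10.15 and 10.68 in light (difference -0.61, SE 0.246). *Asmt*, the last enzyme of melatonin synthesis, read 10.24, 10.08 and 10.17 in darkness against 10.07, 9.09 and 9.44 in light, with no overlap (-0.63, SE 0.187). *Adra1b*, the α1B adrenergic receptor, read 11.05, 10.62 and 10.70 in darkness and 10.23, 10.41 and 10.16 in light, again with no overlap (-0.52, SE 0.191), and at 6 ZT its difference was -0.58.

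Most transcripts of bipolar cells and cones that could be measured read lower in light, though not all by a clear margin. Of 18 bipolar cell genes only 7 were measured, 6 of them with lower values, with a median log2 difference of -0.555 against 0.00 over all probe sets. At an unadjusted limma p under 0.05, 3 were lower (42.9%, against 2.64% of all probe sets). Without replica 2 the same split of 6 lower and 1 higher had a median of -0.137, and over every probe set of these genes the median was -0.095. *Grm6*, the glutamate receptor mGluR6, read 11.03, 10.90 and 10.85 in darkness and 10.04, 10.70 and 9.56 in light, where replica 2 showed the smallest step (difference -0.83, SE 0.23; -1.14 without replica 2), and the groups did not overlap. Its 2 dimmer probe sets differed by -0.09 and -0.01. *Pcp2*, a modulator of the G protein of rod bipolar cells, read 14.15, 14.48 and 14.24 in darkness and 13.52, 13.32 and 13.75 in light, with no overlap (-0.76, SE 0.176). *Gng13*, the G protein γ subunit of ON bipolar cells, read 12.10, 11.81 and 12.74 against 11.20, 11.21 and 12.21, lower within every replica although the groups overlapped (-0.68, SE 0.23). *Trpm1*, the cation channel that mGluR6 closes, differed by -0.57, -1.39 and 0.30 in replicas 1, 2 and 3 (-0.56, unadjusted p = 0.138; -0.14 without replica 2).

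Of 12 cone genes 10 were measured, 8 with lower values (median -0.22). At an unadjusted limma p under 0.05, 3 were lower (30%, against 2.64% of all probe sets). Without replica 2, 6 were lower and 4 higher (median -0.20), 1 of them lower at that p, where 1.7% of all probe sets were lower. *Gnb3*, the transducin β subunit of cones, also used by ON bipolar cells, read 12.59, 12.70 and 12.97 in darkness and 12.20, 12.49 and 12.46 in light, with no overlap (-0.37, SE 0.0959). *Kcnv2*, a potassium channel subunit of photoreceptors, differed by -0.60 (SE 0.189; -0.34 without replica 2) and *Opn1sw*, the short-wavelength cone opsin, by -0.41 (SE 0.183; -0.28 without replica 2). For *Opn1mw*, the middle-wavelength opsin, the interval of the difference ran from -0.58 to 0.20, and its sign turned without replica 2 (0.11). Of 26 rod genes 24 were measured, 6 higher and 18 lower, with a median of -0.056, and 0 reached an unadjusted p under 0.05 in limma in either direction. Without replica 2 they were split evenly, 12 higher and 12 lower (median -0.0035). At that p 2 were higher, where 1.85% of all probe sets were higher. For *Sag* the interval was -0.34 to 0.08.

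Clock genes lay lower in light in most cases at 3 ZT, while at 6 ZT 12 were higher and 8 lower (median 0.035). Of 24 genes 20 were measured, 4 with higher and 16 with lower values at 3 ZT (median -0.185). At an unadjusted limma p under 0.05, 5 were lower (25%, against 2.64% of all probe sets) and 0 higher. Without replica 2 the split was 5 against 15, with a median of -0.071. At that p 4 were lower, where 1.7% of all probe sets were lower. Over every probe set of these genes, with all replicas, the median was -0.087. The lowest p belonged to *Rorb*, a nuclear receptor of the clock that also acts in photoreceptor development, at 12.18, 12.40 and 12.52 in darkness and 12.02, 11.24 and 11.34 in light. These groups did not overlap, though the step of replica 1 was small (difference -0.83, SE 0.184), and a dimmer probe set differed by -0.23. *Per3*, a period gene, read 9.34, 9.90 and 9.94 in darkness and 8.29, 9.10 and 9.87 in light (-0.64, SE 0.235; -0.03 by a dimmer probe set). *Tef*, a transcription factor driven by the clock, differed by -0.53 (SE 0.179), *Cry2*, a cryptochrome, by -0.41 (SE 0.142) and *Csnk1e*, a kinase of the period proteins, by -0.35 (SE 0.133).

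On the side of higher values in light, the named gene with the lowest p was *Rab27b*, a GTPase of vesicle secretion. Its brighter probe set read 7.16, 6.82 and 10.34 in darkness and 9.25, 8.41 and 11.20 in light. The replicas sat at very different levels, so the groups overlapped, but the light/dark ratio was 4.26, 3.02 and 1.81 (3.03 ± 1.22, SD, n = 3; log2 difference 1.51, SE 0.278). The second probe set of the gene differed by 0.43. *Ro60*, an RNA-binding protein that recognizes misfolded small RNAs, was higher by both its probe sets and without overlap in either. For the dimmer one the dark arrays read 8.51, 9.41 and 9.55 and the light arrays 9.92, 11.14 and 10.55 (ratio 2.66 ± 0.659; difference 1.38, SE 0.372), and for the brighter one 9.60, 10.24 and 10.40 against 10.81, 10.71 and 11.45 (0.91, SE 0.187).

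A probe set without a gene name, 1389754_at, had the lowest p of all on this side. It read 9.92, 9.89 and 9.94 in darkness and 11.27, 10.96 and 11.96 in light, ratios of 2.54, 2.09 and 4.06. The groups did not overlap, the log2 difference was 1.48 (SE 0.232, adjusted p = 0.808), and at 6 ZT it was 1.67.

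*Crem* and *Ppargc1a*, both known to respond to cyclic AMP, had higher values in light. *Crem*, whose products include activators and repressors that bind the CRE, is measured by 6 probe sets, 5 with higher and 1 with lower values. For the brightest the dark arrays read 10.84, 11.29 and 11.19 and the light arrays 11.47, 11.68 and 11.67, without overlap (0.50, SE 0.144). The others differed by 0.45, 0.38, 0.37, 0.02 and -0.05. *Ppargc1a*, a coactivator that drives mitochondrial biogenesis and fatty acid oxidation, read 5.74, 5.35 and 7.28 in darkness and 7.36, 6.43 and 8.52 in light by its dimmest probe set, ratios of 3.07, 2.10 and 2.37 at a low level (1.31, SE 0.362). Its 2 brighter probe sets differed by 0.29 and 0.24. *Cpt1a*, which admits long-chain fatty acids to mitochondria, read 11.40, 11.70 and 12.10 in darkness against 12.08, 12.18 and 12.26 in light (0.44, SE 0.117), higher in each replica, and its difference at 6 ZT was 0.45.

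The promoters of *Ppargc1a* and *Crem* are shown because they hold the CRE, in capitals. Counted from the annotated start, it lies at -181 to -174 in *Ppargc1a*, at -56 to -49 and -35 to -28 at the second and the third of 3 starts of *Crem*, and nowhere in the 250 bases of the first. Of 35 genes looked up, 33 had a promoter entry and 4 a CRE, the others being *Asmt* and *Lamb3*, both with lower values in light. A match is a description of these bases and not a binding site.
Ppargc1a, chr14:63634058-63634307 (+): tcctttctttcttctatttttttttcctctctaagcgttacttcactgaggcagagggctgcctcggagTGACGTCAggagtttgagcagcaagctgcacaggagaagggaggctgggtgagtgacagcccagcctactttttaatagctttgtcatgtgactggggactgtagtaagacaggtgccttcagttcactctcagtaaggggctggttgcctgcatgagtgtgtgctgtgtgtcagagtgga
Crem, chr17:58984547-58984796 (+): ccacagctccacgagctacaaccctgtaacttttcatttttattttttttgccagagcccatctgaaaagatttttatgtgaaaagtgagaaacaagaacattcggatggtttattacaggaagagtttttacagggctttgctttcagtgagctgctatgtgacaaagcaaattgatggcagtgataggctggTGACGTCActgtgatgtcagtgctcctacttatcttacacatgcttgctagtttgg
Crem, chr17:58985240-58985489 (+): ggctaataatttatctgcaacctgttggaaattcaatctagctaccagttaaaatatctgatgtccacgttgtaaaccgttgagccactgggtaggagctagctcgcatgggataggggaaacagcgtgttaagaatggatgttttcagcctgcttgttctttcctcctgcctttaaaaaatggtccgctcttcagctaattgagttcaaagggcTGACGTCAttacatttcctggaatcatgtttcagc

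**Figure D3:**
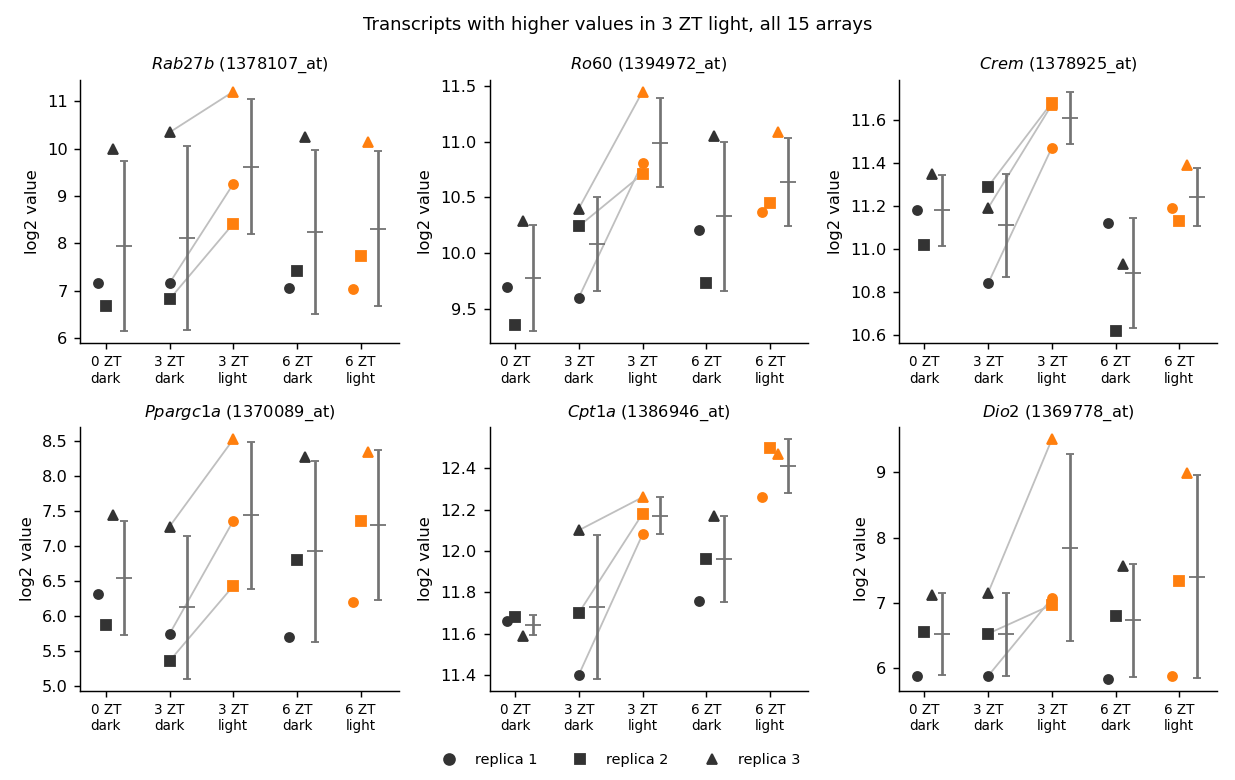
Log2 level (vertical axis) of single arrays in all 5 conditions for transcripts with higher values in 3 ZT light, 1 panel per probe set. Bars are the mean ± SD of a condition (n = 3) and lines join the dark and light arrays of a replica at 3 ZT, which all run upwards in the panels of *Rab27b* and *Ro60*, from starting levels that differ between replicas.

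*Dio2*, the deiodinase that makes the active thyroid hormone T3 from T4, read 5.87, 6.52 and 7.15 in darkness and 7.07, 6.97 and 9.51 in light. The ratio was 2.28, 1.36 and 5.12, above 1 in all 3 replicas but with overlapping groups, and the log2 difference was 1.33 (SE 0.383, interval 0.48 to 2.18; 1.77 without replica 2). For *Dio3*, which inactivates T3, the interval was too wide to give a direction (-0.09, interval -1.09 to 0.90). Of 24 genes of the thyroid hormone cascade 22 were measured, 8 higher and 14 lower (median -0.055). *Dio2* was the only one at an unadjusted limma p under 0.05 in either direction (4.55% higher, against 1.96% of all probe sets). The split turned to 12 higher and 10 lower without replica 2 (median 0.02). Of 19 T3 target genes 18 were measured, 5 higher and 13 lower. *Cpt1a* was higher at an unadjusted limma p under 0.05 (5.56%, against 1.96% of all probe sets). *Opn1sw* and *Thrsp*, a regulator of fat synthesis (-0.49, SE 0.169), were lower at that p (11.1%, against 2.64% of all probe sets). The split of 5 higher and 13 lower turned as well without replica 2, to 12 higher and 6 lower (median 0.037). At that p 0 were then lower in limma, against 1.7% of all probe sets, and *Thrsp* differed by -0.28.

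Further genes had a probe set with higher values in every replica. *Baiap2l1*, which shapes the plasma membrane through actin, differed by 0.58 (SE 0.129) and by 0.57 at 6 ZT. *Polb*, a DNA repair polymerase, differed by 0.38 (SE 0.0824), *Ube2h*, a ubiquitin-conjugating enzyme, by 0.54 (SE 0.124), *Map1b*, a microtubule-associated protein, by 0.45 (SE 0.116) and *Ppp2r2b*, a regulatory subunit of protein phosphatase 2A, by 0.34 (SE 0.0877). Of these only *Ppp2r2b* had groups without overlap. Probe sets of *Cdc23*, *Crebrf*, *Nmt2* and *Cop1* differed by 0.26 to 0.44. Other probe sets of some of these genes went the other way: the brightest of *Polb*, *Ube2h*, *Crebrf* and *Cdc23* differed by -0.08, -0.14, -0.12 and -0.18, a second of *Cdc23* by -0.75 and a second of *Cop1* by -0.04. Among neuropeptides, *Vip* read 11.76, 11.91 and 10.82 in darkness and 12.07, 12.27 and 11.72 in light (0.52, SE 0.163). *Myo5a*, a motor of organelle transport, differed by 0.82 (SE 0.316). *Crh*, the corticotropin-releasing hormone, was not higher in every replica: its difference was 0.71, -0.06 and 1.79 in replicas 1, 2 and 3 (0.81, SE 0.357; 1.25 without replica 2).

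Further transcripts with lower values included an enzyme of nucleotide balance and several structural genes. *Ak4*, the adenylate kinase of the mitochondrial matrix, read 11.19, 11.23 and 11.06 in darkness and 10.64, 10.22 and 10.53 in light, with no overlap (-0.70, SE 0.136; -0.02 by a dimmer probe set). *Krt19*, a keratin, read 11.32, 11.07 and 11.19 against 10.39, 9.92 and 10.55, again with no overlap (-0.90, SE 0.192). *Hes6*, a transcription factor of neuronal differentiation, had a small and even difference at 12.17, 12.29 and 12.03 against 11.93, 11.90 and 11.59 (-0.36, SE 0.073). *Frmpd1*, a scaffold protein, differed by -0.60 (SE 0.129), and *C4bpb*, a complement regulator, by -0.56 (SE 0.114), both without overlap. *Cmya5*, *Lrguk*, *Pth2r*, *Agmo* and *Riiad1* differed by -0.43 to -0.68, and *Lamb3*, a laminin chain, by -0.78 (SE 0.306). *Lpal2* differed by -1.18 (SE 0.427) at a low level, where the dark arrays read 6.26 to 7.05 and the light arrays 5.28 to 5.67.

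Immediate early genes showed no common direction at 3 h. Of 31 genes 29 were measured, 17 with higher and 12 with lower values (median 0.057). By their brightest probe sets *Crem* was higher at an unadjusted limma p under 0.05 (3.45%, against 1.96% of all probe sets). *Nr4a1*, *Klf2* and *Ier3* were lower at that p (10.3%, against 2.64% of all probe sets). With replica 2 left out, 14 members were higher and 15 lower. *Klf2* differed by -0.22 by the brightest of 5 probe sets, while the other 4 lay at 0.27, 0.03, 0.02 and 0.00, and *Ier3* by -0.39 (-0.15 without replica 2). *Nr4a1*, an orphan nuclear receptor, read 10.28, 10.36 and 10.04 in darkness against 10.01, 9.52 and 9.64 in light, without overlap (-0.50, SE 0.144). *Fos* differed by -0.18, 1.30 and 0.07 in replicas 1, 2 and 3 (0.40, unadjusted p = 0.411; -0.06 without replica 2). Among 10 measured genes of ERK feedback and the Etv factors, 6 were higher and 4 lower. *Etv1* was higher by all 5 of its probe sets (0.50, SE 0.213 by the brightest), as was *Dusp6*, the ERK phosphatase, by all 3 (0.47, SE 0.206), whereas *Etv5* was lower (-0.62, SE 0.229) without overlap.

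In broad groups of abundant transcripts the differences were largest in replica 2. All 19 measured glycolysis genes were lower (median -0.193), as were 44 of 47 cytosolic ribosomal protein genes (median -0.145) and 73 of 79 respiratory chain genes (median -0.179). Without replica 2 the numbers of lower members were 16 of 19, 26 of 47 and 55 of 79, with medians of -0.085, -0.0055 and -0.0215. An unadjusted limma p under 0.05 on the lower side was reached by 7 respiratory chain genes with all replicas (8.86%, against 2.64% of all probe sets). Without replica 2 it was reached by 0, where 1.85% of all probe sets were higher and 1.7% lower at that p. In the light array of replica 2 the 3′ to 5′ difference of *Actb* was 2.40, and its part in these medians was not tested.

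**Figure D4:**
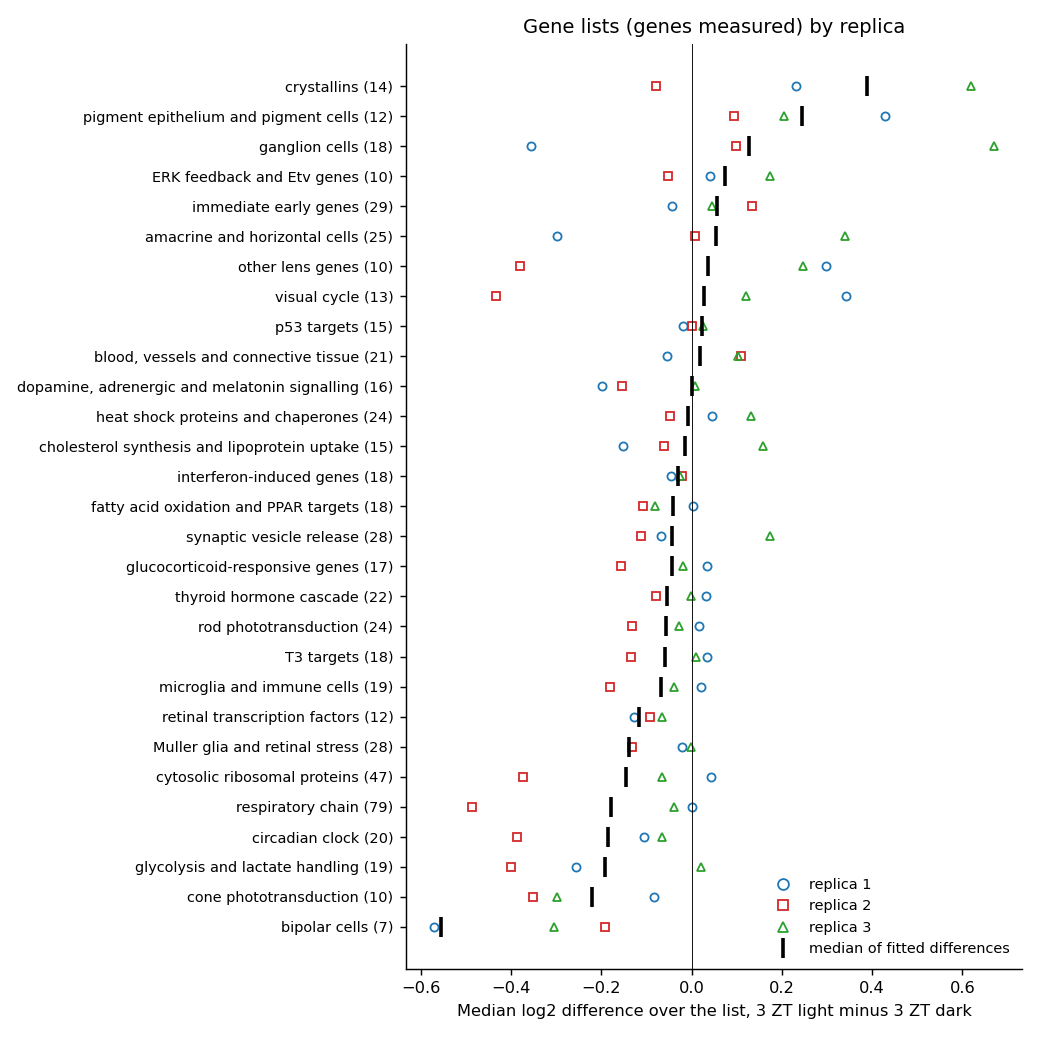
Median light minus dark log2 difference of each gene list at 3 ZT (horizontal axis) in replicas 1, 2 and 3 separately, 1 row per list, with a vertical line at 0. For ribosomal, respiratory chain and glycolysis genes the point of replica 2 lies lowest, and for ganglion and amacrine cell genes replicas 1 and 3 lie on opposite sides of 0.

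Neurons of the inner retina showed how far single replicas could part. Of 20 ganglion cell genes 18 were measured, 12 higher and 6 lower (16 and 2 without replica 2), with medians of -0.356, 0.098 and 0.671 in replicas 1, 2 and 3. Of 26 genes of amacrine and horizontal cells 25 were measured, 16 higher and 9 lower (10 and 15 without replica 2), with medians of -0.298, 0.0064 and 0.34. Replicas 1 and 3 thus had opposite signs for both lists, and *Pou4f1*, a transcription factor of ganglion cells, differed by 0.00, 0.14 and 1.18 in replicas 1, 2 and 3. *Isl1*, a homeobox factor of ganglion and bipolar cells, was lower at -1.12, -1.03 and -0.10 (-0.75, SE 0.227; -0.07 by a dimmer probe set). For *Calb1*, the calcium-binding protein of horizontal cells, all 3 replicas were lower in light, at -0.09, -0.41 and -0.23 (-0.24, SE 0.0866, no overlap). The lists of the visual cycle, synaptic vesicle release, chaperones, vessels and connective tissue, interferon-induced genes, p53 targets, glucocorticoid-responsive genes, cholesterol synthesis and fatty acid oxidation had medians between -0.044 and 0.027. The visual cycle stood at 0.296 without replica 2, with 11 higher and 2 lower. Chaperones, with 12 higher and 12 lower over all replicas, were then split into 19 higher and 5 lower (median 0.071).

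Markers of tissues that a dissected retina can carry differed between the arrays too. Of 16 crystallin genes 14 were measured, 11 higher and 3 lower in light at 3 ZT (median 0.39), with medians of 0.23, -0.08 and 0.62 in replicas 1, 2 and 3. Without replica 2, 13 were higher and 1 lower. *Crygd*, a lens crystallin that departs from this pattern of the list, read 10.55, 10.48 and 8.49 in darkness and 12.51, 11.71 and 8.35 in light, so that replicas 1 and 2 differed upwards and replica 3 did not. *Crygb* and *Crygc* departed in much the same way. In replicas 1, 2 and 3 *Crygb* differed by 1.99, 0.75 and 0.10 and *Crygc* by 2.09, 0.76 and -0.09. Other lens genes were split evenly, 5 higher and 5 lower (8 and 2 without replica 2). Of 14 genes of pigment epithelium and pigment cells 12 were measured, 9 higher and 3 lower (median 0.24). Without replica 2 all 12 were higher (median 0.33). The melanosome proteins *Pmel* and *Dct* differed by 0.48 and 0.41, and the retinoid isomerase *Rpe65* by -0.03 (0.30 without replica 2). Of 19 measured microglia and immune genes 5 were higher and 14 lower (6 and 13 without replica 2). Within it *Aif1*, a microglial marker, differed by -0.77 by its brighter probe set (-0.28 without replica 2) and by 0.03 by the other. For the glia of the retina itself, 28 genes were measured, 7 higher and 21 lower (median -0.138; -0.043 without replica 2). *Glul*, the glutamine synthetase of Müller cells, differed by -0.21 (SE 0.0889) and *Il6st*, the gp130 receptor, by 0.38 (SE 0.164), both without overlap. The part of carried-over lens or pigment epithelium in the differences of single genes was not tested.

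The light effects at 3 ZT and 6 ZT share no array, and their difference can be tested, although what the 6 ZT arrays received is uncertain, with 6 h of light by the titles and 3 h by the treatment field. No probe set passed (limma, lowest adjusted p = 0.776; 1847 at an unadjusted p under 0.05, 561 with a higher and 1286 with a lower light effect at 3 ZT), and 0 passed in either direction for light against darkness at 6 ZT. Across probe sets the mean differences at the 2 time points correlated at r = 0.044 (genes are not independent). For *LOC102553043* the difference at 6 ZT was -0.29, and the 3 ZT effect minus the 6 ZT effect was -0.92 (SE 0.168, unadjusted p = 0.000221, adjusted p = 0.776). *Rab27b* was close to 0 at 6 ZT (0.07; difference of effects 1.44, SE 0.393, unadjusted p = 0.00394), as was *Grm6* (0.04; -0.87, SE 0.325, unadjusted p = 0.0226). *Per3* took opposite signs, -0.64 at 3 ZT and 0.51 at 6 ZT (unadjusted p = 0.00575). *Cpt1a*, *Baiap2l1* and *Adra1b* had close values at both times (unadjusted p of the difference 0.838 to 0.962).

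The genes with the lowest p for a difference between times came partly from the lens. *Crygd* differed by 1.01 at 3 ZT and -1.50 at 6 ZT, and *Bfsp1*, a filament protein of lens fibres, had a 3 ZT effect 2.02 above that of 6 ZT (SE 0.44, unadjusted p = 0.000865). Crystallins as a group had a median of -1.57 at 6 ZT with all 14 members lower, other lens genes -1.09 with all 10 lower, and pigment genes 0.63. On the other side, *F3*, the tissue factor that starts blood coagulation, had a 3 ZT effect minus 6 ZT effect of -0.59 (SE 0.104, unadjusted p = 0.000172) and *Acin1*, a nuclear protein of RNA splicing and apoptosis, one of -0.71 (SE 0.122, unadjusted p = 0.000134).

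**Figure D5:**
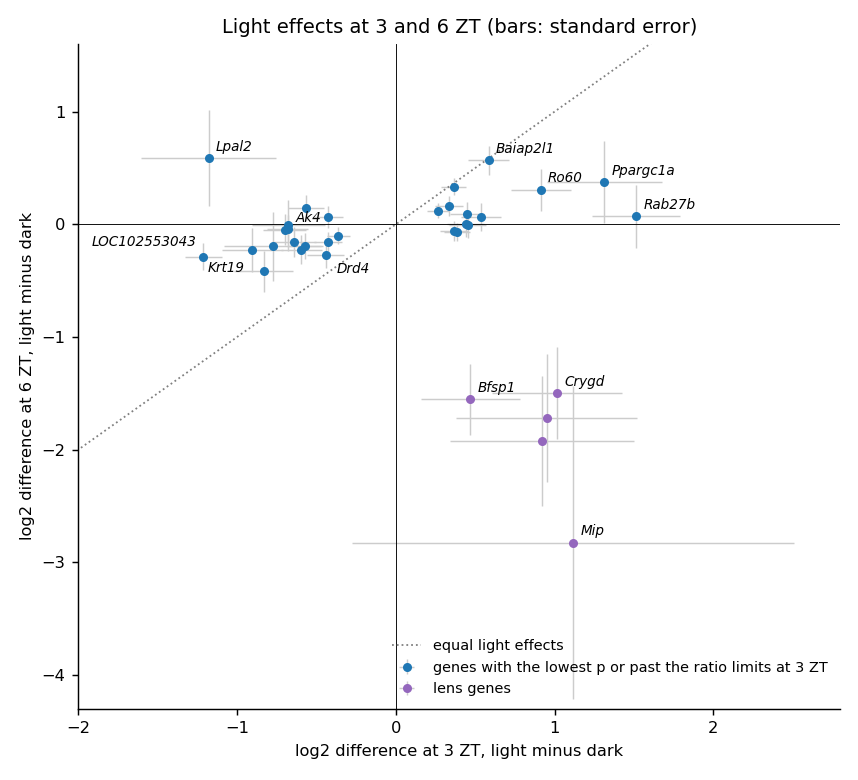
Fitted light minus dark log2 difference at 3 ZT (horizontal axis) against that at 6 ZT (vertical axis), 1 point per gene with its SE, for genes with the lowest p or past the ratio limits at 3 ZT and for lens genes. *Baiap2l1* lies on the dotted line of equal effects, *Rab27b* and *LOC102553043* near 0 on the vertical axis, and lens genes such as *Crygd* to the lower right.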

How the data were processed

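RNA of 15 retina samples was hybridized to Affymetrix RAT230_2 arrays, and the authors summarised the scans by Robust Multi-array Average, so the deposited values are log2 expression levels per probe set; software version and probe set definitions are not given in the sources used here. Samples were grouped by their labels. Symbols were assigned through Entrez identifiers and RefSeq (GRCr8). Differences were tested with limma 3.58.1 in R 4.3.3 (lmFit and eBayes; condition plus replica number, all 15 arrays, Benjamini-Hochberg over 31042 probe sets, threshold 0.05). The pairing rests on the study's ratios within a replica. Deviations from the condition means correlated at 0.553 to 0.583 between light and dark arrays of the same number and at -0.42 to -0.204 otherwise. Deviations from a mean of 3 arrays cancel out, so positive values for equal numbers favour negative values elsewhere. These correlations cannot tell paired samples from arrays processed together. Ratios were counted above 1.6 or below 0.7 in all 3 replicas. Gene lists (29, plus 1 added later) were described through the brightest probe set of each gene. Named genes were the 12 lowest p per direction with one sign in all replicas, those passing the ratio rule, up to 4 per list, the genes the study names, and 3 per direction by the difference between times; unnamed probe sets were named after their values were seen. The members and lists were chosen with earlier results of these data known. Promoters were the 250 bases before RefSeq starts. Scripts were tested on simulated data. No array depth applies; the number of arrays limits the precision. Alternatives were no replicate block, other normalizations, a filter on the dimmest 25% of probe sets, array weights (statmod 1.5.0), 1 probe set per gene, only the arrays at 3 ZT, stricter ratios, and arrays or replicas left out. Figures were drawn with matplotlib 3.10.9.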

Additional observations from a re-analysis of the deposited data

Results flagged for a closer look

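For retinal transcription factors the median light minus dark difference had opposite directions at the 2 times when each replica was taken by itself. Of 17 genes 12 were measured, and the median log2 difference at 3 ZT was -0.117 in the fit and -0.127, -0.0915 and -0.0655 in replicas 1, 2 and 3. In the fit 4 members were higher and 8 lower, and without replica 2 the split was 6 and 6 (median -0.058). At 6 ZT the medians of the replicas were 0.0205, 0.039 and 0.0085, all above 0. The median of the fitted differences there was -0.0255, with 5 members higher and 7 lower, so most members were lower at both times. The difference between the times was not tested for the group, 0 of 31042 probe sets passed limma's adjusted test of such a difference (1847 at an unadjusted p under 0.05). No test for a single outlying value was run on single genes or lists, as each group has 3 arrays.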

How the results depend on the processing

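The count of 0 higher probe sets held in all 23 alternatives, while the count of 1 lower, *LOC102553043*, held in 7: cyclic loess, dim probe sets left out, array weights, 1 probe set per gene, and replica 1 or 3 of 0 ZT dark or replica 1 of 6 ZT dark left out. It became 0 with no replicate block (adjusted p = 0.0586), with quantile normalization (0.0561), with only the 6 arrays of 3 ZT (0.929) and with replica 2 of both conditions left out (0.358). With single arrays left out, 9 of them in alternatives chosen after seeing the data, it ranged from 0 to 1, and 3 of the 15 left the call. Over all alternatives the adjusted p of *LOC102553043* ranged from 0.00358 to 0.929. Unadjusted counts fell to 71 higher and 107 lower with no replicate block, and reached at most 1425 and 1688. The count of ratios above 1.6 in all replicas (5) became 2 at a ratio of 2 and 1 with 1 probe set per gene, and 24 to 118 when only the other replicas had to pass. The count below 0.7 (10) became 1 at a ratio of 0.5 and 6 with 1 probe set per gene, and 24 to 203 in the same way. With array weights, replica 2 of both conditions left out and the light array of replica 2 left out, 4 of the 64 probe sets followed through every alternative changed direction: *Dio3* to 0.23, 0.12 and 0.14, *Opn1mw* to 0.033, 0.11 and 0.063, *Grk1* to 0.33, 0.46 and 0.49, and *Pax4* to 0.48, 0.59 and 0.54. Without the dark array of replica 2, *Grk1* was 0.021 and *Pax4* 0.12, and *Sag* was 0.01 without replica 2 of both conditions. With single arrays at 3 ZT left out, *Dio3* ranged from -0.28 to 0.14, *Opn1mw* from -0.35 to 0.063, *Grk1* from -0.40 to 0.49 and *Pax4* from -0.52 to 0.54. The causes were not tested. Of 30 list medians, 2, 6 and 3 moved by more than the spread between replicas without replicas 1, 2 and 3, 2 when every probe set of the listed genes was used, and 0 with quantile normalization.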

Other observations

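A list of 27 known targets of hypoxia-inducible factors, which act on genes when oxygen is short, was written after the values of *LOC102553043* and *Ak4* had been seen. All 27 were measured, 5 with higher and 22 with lower values in light at 3 ZT. The median log2 difference was -0.165, against 0.00 over all probe sets, and -0.125, -0.442 and 0.014 in replicas 1, 2 and 3, and without replica 2 it was -0.061, with 21 lower and 6 higher. At an unadjusted limma p under 0.05, 3 were lower (11.1%, against 2.64% of all probe sets). They were *Ak4*, whose value prompted the list, *Ankrd37* at -0.59 (-0.19 without replica 2) and *Mxi1*, an antagonist of Myc, at -0.33 (-0.23). Without replica 2, 1 member was lower at that p, where 1.7% of all probe sets were lower. At 6 ZT the median was 0.014.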
